A study of Arabidopsis thaliana with 7 samples.

Results

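The genes described here are those with a symbol made of CYP and a digit that lie outside the CYP71B subfamily. The platform annotation used here gave such a symbol to 7 genes, each with 1 probe set. It names 13350 genes with a probe set of their own, and leaves 8794 of the 22810 probe sets unlisted. Other CYP genes that the array may read by unlisted or shared probe sets are therefore not in the set. The symbol stands for 2 unrelated protein families. By their RefSeq synonyms 2 of the 7, CYP71 and CYP59, are cyclophilins, so the set is not one of P450 genes alone. The other 5 (CYP84A4, CYP79A2, CYP78A9, CYP718 and CYP51G2) have no such synonym and were taken as cytochromes P450. No P450 subfamily had more than 1 member, so the comparison of subfamilies is one of single genes. RefSeq holds 241 Arabidopsis genes with a CYP-and-digit symbol, and the P450 genes other than these 5 and the 19 CYP71B genes were not analysed here.

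The RNA came from roots of Arabidopsis thaliana, each array holding a pool of 20 plants. Untransformed wild type was compared with ANGR4-12, a C24 line in which the 35S promoter drives a fusion of the MADS-box factor ANR1 to the rat glucocorticoid receptor domain. The wild type is given only a control ecotype and a stock code, the line is 1 transgenic line, and the 35S promoter is active in most cell types. All plants were starved of nitrogen for 2 days and moved, after 9 days, for 1 h to agar with 0 or 1 µM dexamethasone, the steroid that lets such a fusion enter the nucleus. The arrays were 2 of wild type without dexamethasone, 2 of wild type with it, 2 of the line without it and 1 of the line with it, which is replicate 2. The replicates are called biological but how they were raised is not described, so p-values measure the spread between these pools, which may be technical.

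Cytochromes P450 are haem-containing monooxygenases, most of them anchored in the endoplasmic reticulum and supplied with electrons by an NADPH-dependent reductase. In plants they carry out oxidation steps in the synthesis of sterols, hormones, phenylpropanoids, glucosinolates and other specialised metabolites, and related members often act in different organs. Cyclophilins are peptidyl-prolyl isomerases, the family that binds the drug cyclosporin, and have no part in that chemistry.

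The probe sets of the 5 P450 genes in this set were dim. The deposited signal is linear and was scaled by the authors to a trimmed mean of 100.0 on each array, and probe sets were tested when their mean over the 7 arrays was at least 50. By that filter 10183 of 22746 non-control probe sets were tested. None of the 5 P450 genes passed, whereas the cyclophilin CYP71 did, with a mean of 62.7 ± 6.65 (SD, n = 7). The nearest genes below the filter were CYP84A4 at 29.5 ± 6.81 and CYP51G2 at 19.4 ± 1.5 (SD, n = 7). CYP78A9 followed at 13.1 ± 5.75, CYP59 at 12.7 ± 1.96, CYP718 at 3.26 ± 1.13 and CYP79A2 at 0.800 ± 0.361. Ranked within each array, CYP71 stood at percentiles 57.8 to 64 of all non-control probe sets, CYP84A4 at 35.5 to 47.9, and CYP79A2 at 2.06 to 7.02. Of the 19 CYP71B genes, 7 passed the same filter, up to CYP71B6 at 815 ± 60.6 (SD, n = 7). Probe sets differ in how strongly they bind, so these ranks order signals, not transcript amounts, and fewer expressing cells cannot be told apart from less RNA per cell.

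**Figure D1:**
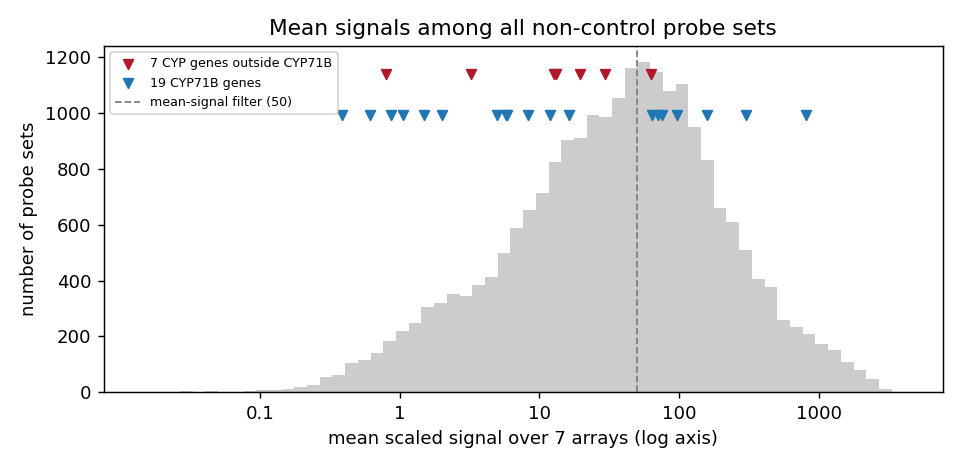
The grey histogram counts non-control probe sets by their mean scaled signal over 7 arrays, on a log axis, and triangles mark the 7 CYP genes (red) and the 19 CYP71B genes (blue), whose height in the plot has no meaning. Of the red triangles, 1, CYP71 at 62.7, lies right of the dashed filter at 50.

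**Figure D2:**
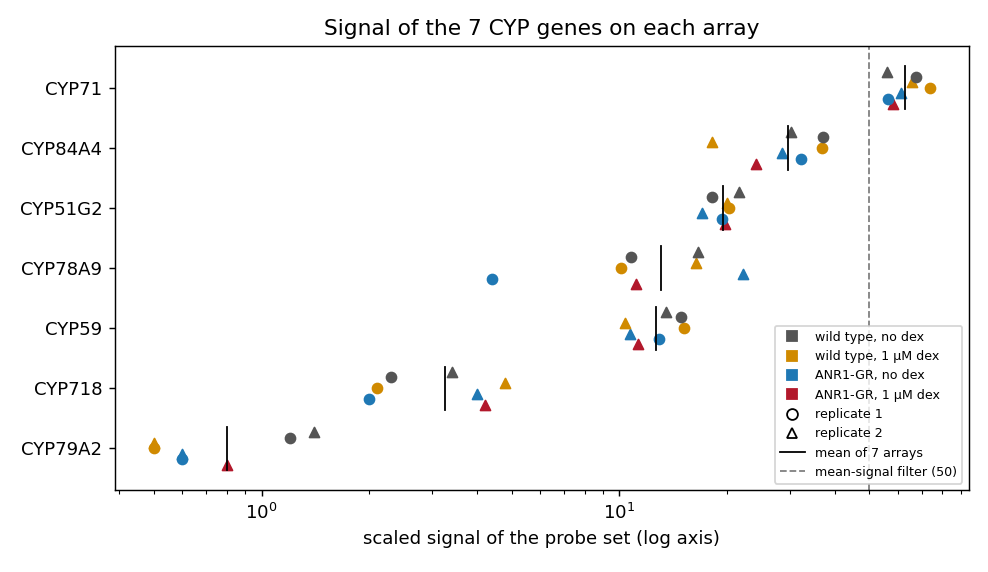
Each point is the scaled signal of 1 gene on 1 array, on a log axis, with colour for line and dexamethasone (dex), shape for replicate number and a bar for the mean of 7 arrays. The points of CYP51G2 lie within 17.0 to 21.6, whereas those of CYP78A9 spread from 4.40 to 22.1.

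CYP84A4 (AT5G04330) encodes a P450 of the family that holds ferulate 5-hydroxylase, and acts in the synthesis of arabidopyrones, a group of phenylalanine-derived pyrones. Its signal was 37.0 and 30.1 in untreated wild type of replicates 1 and 2, and 36.9 and 18.1 in treated wild type. In the untreated line it was 32.1 and 28.4, and in the treated line 24.1. The 3 arrays of replicate 1 were the highest, as they were for 14.3% of all probe sets. The treated wild type of replicate 2 was the lowest. The line and the wild type overlapped, with means of 28.2 ± 4.00 (SD, n = 3) and 30.5 ± 8.89 (SD, n = 4).

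CYP79A2 (AT5G05260) converts phenylalanine to its aldoxime, the entry step to benzylglucosinolate. It had the lowest signal of the 7 genes, near the bottom of every array. The signal was 1.20 and 1.40 in untreated wild type, 0.500 in both arrays of treated wild type, 0.600 in both arrays of the untreated line and 0.800 in the treated line. The untreated wild type was therefore the highest group. Those values differ by under 1 unit on a scale where the typical probe set stood at 36.6 to 41.8, the range of the arrays' medians.

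CYP78A9 (AT3G61880) belongs to a family that promotes growth of fruits, seeds and other organs. Its signal was 10.8 and 16.6 in untreated wild type of replicates 1 and 2, and 10.1 and 16.4 in treated wild type. In the untreated line it was 4.40 and 22.1, the lowest and the highest of the 7 arrays, and in the treated line 11.1. The arrays of the untreated line thus lay farther apart than those of either wild type group. All 7 values are far below the filter, at percentiles 14.8 to 38.5 of the arrays, and whether the lowest is above background is not known.

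CYP51G2 (AT2G17330) is a relative of the sterol demethylase gene CYP51G1 and is listed by RefSeq as a transcribed pseudogene. It varied least of the 7 in proportion to its signal, with a coefficient of variation of 7.73% against 10.6% for CYP71 and 45.1% for CYP79A2. The signal was 18.1 and 21.6 in untreated wild type, 20.3 and 20.0 in treated wild type, 19.4 and 17.0 in the untreated line, and 19.7 in the treated line, replicate 1 first. The groups overlapped. Whether the probe set also reads transcripts of related CYP51 genes was not tested.

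CYP718 (AT2G42850) is a P450 whose signal divided by replicate number. It was 2.3, 2.1 and 2.0 in the replicate 1 arrays of untreated wild type, treated wild type and untreated line. In replicate 2 it was 3.40, 4.80 and 4.00 in the same groups, and 4.20 in the treated line. Of all probe sets, 10.4% likewise had every replicate 2 array above every replicate 1 array. Both ranges are low, at percentiles 8.96 to 16.0 of the arrays, and whether they are above background is not known.

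The cyclophilins differed in signal. CYP71 (AT3G44600) is a nuclear cyclophilin with WD40 repeats that acts in gene silencing through chromatin. Its signal was 67.6 and 55.9 in untreated wild type of replicates 1 and 2, 73.7 and 65.9 in treated wild type, 56.3 and 61.2 in the untreated line, and 58.2 in the treated line. The highest 3 arrays were of the wild type, but the lowest was too, so the genotypes overlapped. CYP59 (AT1G53720) carries an RNA-binding domain and acts on the phosphorylation of RNA polymerase II. Its signal was 14.9 and 13.5 in untreated wild type, 15.2 and 10.4 in treated wild type, 12.9 and 10.7 in the untreated line, and 11.3 in the treated line. In each of the 3 groups with both replicates it was lower in replicate 2, although 12.9 to 15.2 in replicate 1 overlapped with 10.4 to 13.5 in replicate 2.

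A further pair of cyclophilin genes, which RefSeq lists with CYP names only as synonyms, were picked by name after the data were seen. Other cyclophilin genes were not looked up, so the pair does not describe the family. SQN, the CYP40 gene that acts in microRNA pathways, had 101 ± 7.22 (SD, n = 7), and AT4G33060, or CYP57, had 65.0 ± 10.6 (SD, n = 7). They passed the filter like CYP71 and unlike CYP59.

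The first question was whether the line differed from the wild type. CYP71, the member with enough signal to be tested, averaged 65.8 ± 7.39 (SD, n = 4) over the wild type arrays and 58.6 ± 2.47 (SD, n = 3) over those of the line. On the scale of log2(signal + 16), which understates changes of dim probe sets, the difference between line and wild type was -0.12 ± 0.12 (SE), with a 95% interval of -0.39 to 0.16. It did not pass limma's test (adjusted p 1 by Benjamini-Hochberg, threshold 0.05). Without dexamethasone the difference was -0.053 ± 0.17 (SE), with an interval of -0.46 to 0.35. With dexamethasone in both it was -0.21 ± 0.20 (SE), with an interval of -0.70 to 0.29. That comparison sets 1 treated line array, of replicate 2, beside both replicates of wild type. Within replicate 2 the treated line had 0.883 times the signal of treated wild type. Within replicate 1 the untreated line had 0.833 times the wild type signal of CYP71, and within replicate 2 it had 1.10 times. Differences between replicates counted as spread in these fits, so a lack of calls does not show that the line did not differ. With the replicate number as a block, the share of probe sets at an unadjusted limma p under 0.05 rose. It went from 0.54% to 1.59% over both treatments, and from 0.403% to 3.74% without dexamethasone. In these 3 comparisons limma called 0 of 10183 probe sets (0%), while 55, 41 and 41 were under 0.05 before adjustment (unadjusted p). With the replicate number as a block, the comparison over both treatments called 1 probe set (0.00982%), not a member, and the others 0.

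The second question was the response to 1 µM dexamethasone. In the wild type, CYP71 had a mean of 69.8 ± 5.52 (SD, n = 2) with and 61.8 ± 8.27 (SD, n = 2) without the steroid, a log2 difference of 0.14 ± 0.17 (SE) with an interval of -0.26 to 0.55. Both replicates had the higher signal with dexamethasone, by 1.09-fold and 1.18-fold. In the line the treated array, of replicate 2, had 58.2 against 58.8 ± 3.47 (SD, n = 2) in the untreated arrays of both replicates. The log2 difference was -0.0099 ± 0.20 (SE) with an interval of -0.50 to 0.48, and 0.032 with the replicate number as a block. Against the untreated array of replicate 2 alone, the treated array had 0.951 times the signal. Subtracting the wild type response from that of the line gave -0.15 ± 0.26 (SE), with an interval of -0.79 to 0.48, and -0.11 with the block. None of the 3 passed limma's test (adjusted p 1), and the intervals leave room for differences of either sign. limma called 0 of 10183 probe sets (0%) in each, with 19, 54 and 76 at an unadjusted p under 0.05. In the wild type 0.187% of probe sets had an unadjusted limma p under 0.05, against 1.13% with the replicate number as a block. Differences between replicates counted as spread in the fits without it, so a lack of calls does not show that dexamethasone had no effect. The group of treated line plants is 1 array, which the fit assumed to vary like the rest.

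**Figure D3:**
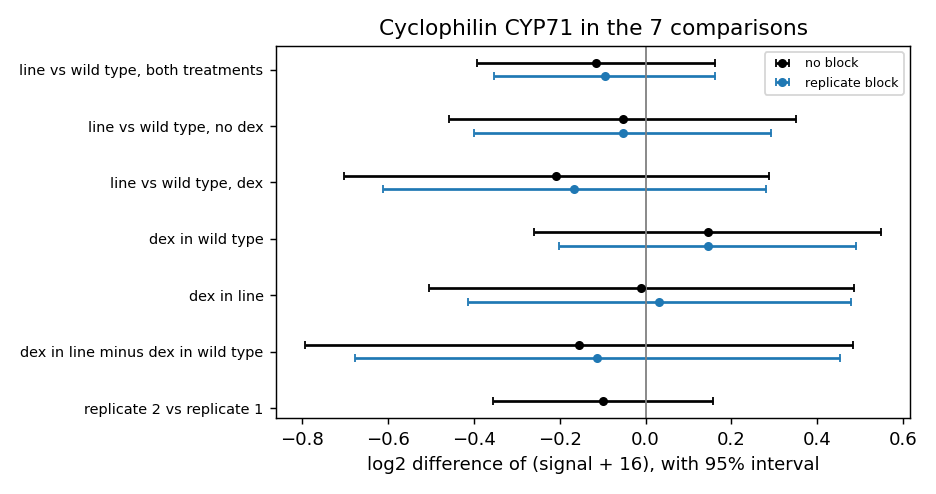
Points are log2 differences of the cyclophilin CYP71 in 7 comparisons, with 95% intervals from limma, fitted without (black) and, where the comparison is not of replicates, with (blue) the replicate number as a block. Every interval spans 0, from the comparison of replicates (-0.36 to 0.16) to the difference of responses (-0.79 to 0.48).

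The dim members were fitted too, with the filter removed, so that all 7 were tested among 22746 probe sets. Over the 6 comparisons of line and dexamethasone limma called 0 of 7 members in each, against 0% of all probe sets. The unadjusted p of the 42 values ran from 0.178 to 0.973, and the log2 differences from -0.22 to 0.14. The 16 added before the log exceeds the mean signals of CYP78A9, CYP59, CYP718 and CYP79A2, so changes of these genes are understated here. For the line over both treatments 6 of the 7 members had negative differences, with a median of -0.091 beside -0.00084 over all probe sets. For dexamethasone 4 of 7 were negative in the wild type and 4 of 7 in the line. The medians were -0.024 and -0.0099, beside -0.00059 and -0.0013 over all probe sets. The share of negative differences over all probe sets was not counted. With the replicate number as a block, dexamethasone in the line gave 5 positive and 2 negative differences. The median was 0.018, beside 0.0039 over all probe sets. For the line over both treatments 6 of 7 stayed negative, with a median of -0.050 beside 0.0033 over all probe sets. The blocked differences ran from -0.35 to 0.17 with unadjusted p from 0.195 to 0.991, and 0 of 7 members were called in each comparison (0% of all probe sets). No member had line arrays that lay entirely above or below the wild type arrays, where 1.69% and 1.34% of all probe sets did. None had treated arrays entirely above or below untreated arrays either, where the shares were 1.13% and 0.95%.

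The comparison of replicates was the one with most calls. With line and dexamethasone in the model, limma called 1167 of 10183 probe sets (11.5%) between replicates, 573 higher and 594 lower in replicate 2. When each array was centred on its median the split was 783 higher and 495 lower. CYP71 was not called, with 60.3 ± 4.32 (SD, n = 4) in replicate 2 and 65.9 ± 8.83 (SD, n = 3) in replicate 1. Its log2 difference was -0.099 ± 0.11 (SE, adjusted p 0.583), with an interval of -0.36 to 0.16. CYP71 was lower in replicate 2 in both wild type groups and higher in the untreated line.

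Among the dim members, CYP78A9 and CYP718 had every replicate 2 array above every replicate 1 array, and CYP84A4 had all of them below. Of all probe sets 10.4% lay above in this way and 14.3% below, and with 7 members the counts of 2 and 1 are read only against these shares. CYP78A9 had 16.6 ± 4.49 (SD, n = 4) in replicate 2 and 8.43 ± 3.51 (SD, n = 3) in replicate 1. Its log2 difference was 0.47 ± 0.14 (SE) in the fit without the filter, which called 468 of 22746 probe sets (2.06%), and its adjusted p was 0.139. Without the untreated line of replicate 1, whose 4.40 was the lowest value, the difference was 0.30.

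CYP718 had 4.10 ± 0.577 (SD, n = 4) in replicate 2 and 2.13 ± 0.153 (SD, n = 3) in replicate 1, a log2 difference of 0.14 ± 0.050 (SE, adjusted p 0.175). The 16 added before the log exceeds these signals, and with 1 added the difference was 0.68. CYP84A4 had 25.2 ± 5.35 (SD, n = 4) in replicate 2 and 35.3 ± 2.80 (SD, n = 3) in replicate 1, a log2 difference of -0.30 ± 0.13 (SE, adjusted p 0.271). Without the treated wild type of replicate 1 it was -0.16, and without that of replicate 2 it was -0.19. None of the 7 members passed between replicates by limma, and 2, CYP78A9 and CYP718, had an unadjusted p under 0.05 (0.0156 and 0.0272), as did 4880 of the 22746 probe sets (21.5%).

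**Figure D4:**
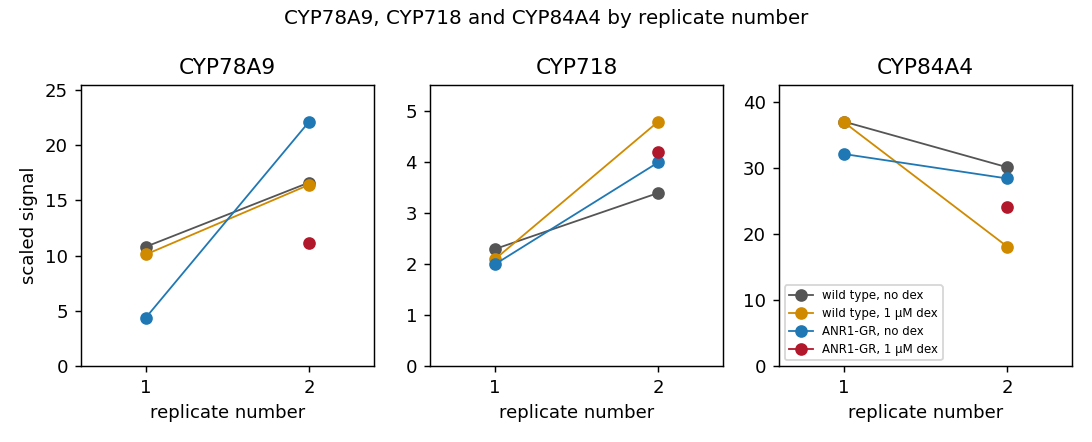
Each panel plots the scaled signal of 1 gene by replicate number, with lines joining the arrays of 1 group and the single array of the treated line (red) unjoined. CYP78A9 and CYP718 were higher and CYP84A4 lower in replicate 2 in each of the 3 joined groups.

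Other measures were set beside the replicate differences. The 3'/5' signal ratio of an actin control, a sign of RNA integrity, was 0.251 to 0.528 in replicate 1. In replicate 2 it was 0.346 in untreated wild type, 0.388 in the treated line, 0.876 in treated wild type and 1.59 in the untreated line, so 2 of the 4 arrays lay within the range of replicate 1. The last array held the highest CYP78A9 signal and the array before it the lowest CYP84A4 signal. With the ratio as a term the replicate differences were 0.30 for CYP78A9, 0.12 for CYP718 and -0.25 for CYP84A4. Of the 12 root markers listed, 2 had a probe set of their own in the annotation, both expansins of root hairs. The others had no such probe set there, which does not show that they are missing from the array. EXPA18 ran from 177 to 313 and EXPA7 from 27.0 to 128, so root hair transcripts were present on each array. The expansins differed in direction between replicates. EXPA7 fell in replicate 2 by 1.11 on the log2 scale (limma adjusted p 0.0406), while EXPA18 had a difference of 0.49 that did not pass (limma adjusted p 0.0638). EXPA18 rose from 194 to 307 in untreated wild type and from 177 to 313 in treated wild type. In the untreated line it rose only from 179 to 194. Of the 8 markers of green shoots 1 had a probe set of its own in the annotation, the Calvin cycle gene SBPASE. Its mean signal of 27.5 was below the filter, so it was not tested. It had 33.0 to 36.3 in the replicate 1 arrays but 19.7 to 23.2 in those of replicate 2. Of all probe sets, 14.3% likewise had every replicate 2 array below every replicate 1 array. The part of RNA integrity or tissue make-up in the replicate differences of the CYP genes was not tested.

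Few partners of these enzymes could be set beside them. Of 64 genes listed for the pathways of plant P450s, including both NADPH-P450 reductases, 3 had a probe set of their own in the annotation and 2 were tested. HCT, the acyltransferase of the phenylpropanoid pathway on which P450s act before and after, had a signal of 1220 ± 86.8 (SD, n = 7). By limma it was called in none of the 7 comparisons, and its log2 differences ran from -0.16 for the untreated line to 0.26 for the difference of responses. UGT74B1, a glucosyltransferase of glucosinolate synthesis that acts downstream of CYP79 enzymes, was not called for line or dexamethasone. It fell between replicate 1 and replicate 2, from 666 to 786 in the 3 arrays of replicate 1 to 328 to 457 in the 4 of replicate 2. Its log2 difference was -0.80 ± 0.12 (SE, limma adjusted p 0.00982). The third, AT5G47980, an acyltransferase of the thalianol cluster, had a mean of 4.76 ± 2.58 (SD, n = 7) and was not tested. Of the 96 P450 symbols in 8 lists by role, 3 belonged to members. These were CYP84A4 under phenylpropanoids, CYP79A2 under glucosinolates and CYP51G2 under sterols, and none had enough signal to be tested.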

How the data were processed

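Affymetrix ATH1 arrays (1 colour, biotin-labelled cRNA) were read for 7 samples. The authors deposited a linear signal intensity for each of 22810 probe sets per array, which they had scaled to equal trimmed means; the summary method is not given in the sources used here. Groups and replicate numbers come from the labels.

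The 64 control probe sets were left out. Probe sets with a mean signal of at least 50 were tested on log2(signal + 16) with limma 3.58.1 (R 4.3.3; lmFit, eBayes with trend) over all 7 arrays, with Benjamini-Hochberg adjustment over all 10183 tested probe sets and a threshold of 0.05. The line over both treatments was fitted beside dexamethasone, the replicate beside both, and the other 5 comparisons as contrasts of 4 groups. The fits were run on simulated data with added changes and independent noise. That noise held no difference shared by the arrays of a replicate. The run therefore does not show how the fits without a replicate block behave on these data.

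Genes were named from the platform annotation (13513 probe sets with 1 gene, 503 with several, 8794 unlisted), of which 13436 matched RefSeq (TAIR10.1) by gene ID. Members were the 1-gene symbols of CYP and a digit outside CYP71B, each by its brightest probe set. The members and lists were chosen with earlier results of these data known. The naming rule took members past the threshold, the largest non-overlapping differences, the brightest members, role-list members and those nearest the filter, and together these cover all 7 members.

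The replicate numbers paired the arrays: differences between replicates correlated across probe sets at 0.472 to 0.826 between the 3 groups that hold both. The block was therefore fitted as an alternative. Other alternatives were scaling, the number added before the log, filters, no trend, a 3'/5' ratio term, arrays left out and single replicates. No sequence was used.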

Additional observations from a re-analysis of the deposited data

How the results depend on the processing

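CYP71 did not pass limma's test in any of the 7 comparisons under any alternative that gave a test. Its sign was not stable for small differences. Leaving out 1 array, the log2 difference of the untreated line ran from -0.16 to 0.055 (positive without the replicate 1 array of untreated wild type), and dexamethasone in the line from -0.057 to 0.037 (positive without the replicate 2 array of the untreated line). The latter was 0.032 with the replicate block and 0.15 when the block stood beside the ratio of 3' to 5' signal. For the difference of responses it was 0.012 with the block and the ratio. Without the filter the members' median was -0.072 for the treated line, -0.024 for dexamethasone in the wild type, 0.048 for the difference of responses and 0.015 between replicates, a change explained by the 6 dim genes added. Under the alternatives run, no member tested passed: CYP71 in those with the filter at 50, all 7 members without the filter, with or without the block, and none could be tested with the filter at 100.

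Counts over all probe sets moved. For the line over both treatments 1 probe set passed with the replicate block, quantile normalization, median centring, 1 added before the log, the filter at 100 or within replicate 2, and 3 with the block and the ratio. With the block and the ratio, a fit with little residual information, the count was 175 for the untreated line, 139 for the treated line, 37 for dexamethasone in the wild type, 94 in the line and 236 for the difference of responses. Leaving out 1 array gave 0 to 1 for each line comparison and 0 for the dexamethasone comparisons. Between replicates 468 passed without the filter and 2457 with replicate number alone, and leaving out 1 array gave 39 to 2850, the lowest when the treated wild type of replicate 1 was dropped and the highest when it was the untreated wild type of replicate 2. Without the other arrays of replicate 1 it was 62 (untreated line) and 198 (untreated wild type), and 264 without the replicate 2 array of treated wild type. The replicate block changed no call of a member. For CYP78A9, CYP718 and CYP84A4, fitted without the filter, the alternatives were chosen after seeing the data, kept the direction between replicates and gave adjusted p from 0.064 to 0.716. Signals near the bottom of the arrays limit what can be said of CYP78A9, CYP718 and CYP79A2. The cause of these changes was not tested.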
